A study of Homo sapiens with 8 samples.

Results

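Long intergenic noncoding RNAs (lincRNAs) are transcripts without a long reading frame that are made from the DNA between protein-coding genes. Many are spliced and polyadenylated as mRNAs are, most are scarce, and their levels tend to differ between cell types. RNA-binding proteins act on them as they do on mRNAs. HuR binds AU-rich and U-rich stretches and often stabilizes the RNA, whereas TIA1 and TIAR bind U-rich stretches, act in splicing and repress translation. The lincRNAs described here are those that the array names with a symbol starting LINC0, the placeholder symbol for a lincRNA of unknown function. They were taken as all probes of this kind that are not controls, which gave 228 of 50599 probes and 133 gene names. Of these genes 78 had 1 probe and 55 had more, up to 9 for LINC00277, and chromosome 21 held the most genes (25) followed by chromosome 13 (15).

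The study measured total RNA of FT293 cells, a human embryonic kidney (HEK293) line with a single integration site, from which tetracycline switches on GFP, GFP-tagged HuR, GFP-tagged TIA1 or GFP-tagged TIAR. All 4 lines were treated with tetracycline for 3 days and each was measured on 2 one-colour arrays. The labels do not say whether the arrays of a line came from separate cultures, so p-values measure the spread between arrays, which may be technical. The lines are isogenic by construction, and what untreated cells express was not analysed here. One label field of the second TIA1 array reads TIA2, while its title and genotype read TIA1. Signals are given as log2 of the processed intensity relative to the array's 75th percentile, so a probe's values can be set side by side across arrays but not against another probe. Probe positions are on hg19 (GRCh37).

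The array GFP 1 stood apart. The scanner software marked 86.0% of all probes as well above background on GFP 1 and between 53.2% and 58.5% on the other 7 arrays, and the mean local background was 90.0 on GFP 1 against 37.4 to 43.5. The share of probes that differed more than 2-fold between the arrays of a line was 15.7% for GFP, 0.455% for HuR, 1.13% for TIA1 and 1.46% for TIAR. Of 7 genes that mark HEK293 cells 6 were well above background on all 7 other arrays. Of 6 markers of other cell types 2 were above on none and 1, PTPRC, on all 7 by 1 of its 5 probes. Among them the liver gene ALB read -5.67 in HuR, -2.85 in TIA1, -3.05 in TIAR and -4.77 in GFP cells, and its part in the results was not tested. A probe of TIAL1, the gene of TIAR, averaged 4.95 in TIAR and 1.70 to 2.51 in the other lines, but its second probe read -3.96 in TIAR against -3.56 in GFP, -3.58 in HuR and -4.15 in TIA1. The probes of ELAVL1 (HuR) and TIA1 were not highest in the line named for them. It is not known which of these probes lie within the transgenes, so they check no label.

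The sequences that carry the results are the array's 60-base probes, which match the transcript strand and are shown here 5′ to 3′. Capitals mark runs of at least 5 T (TTTTT) and the AU-rich pentamer ATTTA, searched on this strand only because the proteins bind RNA. The first group holds RNAs that were lower in TIA1- than in HuR-expressing cells, with 1 of 4 probes of LINC00467 left out because it shares 44 of its bases with the third one listed. LINC00482 and LINC00086, which were also lower, are not shown.
LINC00263, chr10:102142863-102142922, plus strand: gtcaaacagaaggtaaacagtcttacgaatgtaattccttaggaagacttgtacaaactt
LINC00263, chr10:102133690-102133749, plus strand: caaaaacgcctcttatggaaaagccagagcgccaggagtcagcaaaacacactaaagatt
LINC00467, chr1:211605740-211605799, plus strand: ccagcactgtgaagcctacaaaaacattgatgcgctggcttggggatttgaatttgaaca
LINC00467, chr1:211605690-211605749, plus strand: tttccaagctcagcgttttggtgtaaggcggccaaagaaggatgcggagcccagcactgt
LINC00467, chr1:211565258-211565317, plus strand: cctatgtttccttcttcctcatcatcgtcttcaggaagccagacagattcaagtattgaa
LINC00346, chr13:111521800-111521859, minus strand: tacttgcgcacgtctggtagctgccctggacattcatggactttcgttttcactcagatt
LINC00460, chr13:107029573-107029632, plus strand: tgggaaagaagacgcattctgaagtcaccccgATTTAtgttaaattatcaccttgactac
LINC00460, chr13:107030039-107030098, plus strand: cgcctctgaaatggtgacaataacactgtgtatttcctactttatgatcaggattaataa

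The next group holds RNAs that were higher in TIA1- than in HuR-expressing cells. LINC00246A, LINC00313 and LINC00421, which were also higher, are not shown, and the called LINC00421 probe also holds TTTTT. For LINC00173 and LINC00085 all 3 probes are shown, because 1 probe of each read differently from the others.
LINC00158, chr21:26758567-26758626, minus strand: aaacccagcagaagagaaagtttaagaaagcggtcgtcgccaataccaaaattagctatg
LINC00173, chr12:116973091-116973150, plus strand: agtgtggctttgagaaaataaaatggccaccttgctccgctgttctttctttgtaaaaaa
LINC00173, chr12:116974257-116974316, plus strand: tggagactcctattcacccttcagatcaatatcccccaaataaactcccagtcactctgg
LINC00173, chr12:116972087-116972146, plus strand: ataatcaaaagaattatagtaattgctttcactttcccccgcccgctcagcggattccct
LINC00085, chr19:52208352-52208411, plus strand: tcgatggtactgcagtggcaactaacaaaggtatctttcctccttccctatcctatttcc
LINC00085, chr19:52206489-52206548, plus strand: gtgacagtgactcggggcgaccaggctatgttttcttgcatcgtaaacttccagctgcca
LINC00085, chr19:52208302-52208361, plus strand: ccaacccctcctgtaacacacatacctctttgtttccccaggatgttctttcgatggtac
LINC00403, chr13:112762270-112762329, plus strand: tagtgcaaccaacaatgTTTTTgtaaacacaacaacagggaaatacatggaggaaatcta

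The last pair is from LINC00476, whose probes at the ends of its locus read in opposite directions.
LINC00476, chr9:98568486-98568545, minus strand: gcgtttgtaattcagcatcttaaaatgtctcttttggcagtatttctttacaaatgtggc
LINC00476, chr9:98637827-98637886, minus strand: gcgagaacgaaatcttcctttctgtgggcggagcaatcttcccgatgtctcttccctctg

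Of the 24 LINC0 probes called in a comparison with HuR, 2 held TTTTT and 1 held ATTTA. Among the 71 LINC0 probes that were tested and not called, 7 held TTTTT and 7 held ATTTA. Over all probes of the array the shares were 10.6% for TTTTT and 7.79% for ATTTA. A probe covers only 60 bases of its RNA, so these counts say nothing about the rest of the transcript.

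The share of LINC0 probes detected lay between that of mRNAs and that of lincRNAs without a name on every array. On the 7 arrays other than GFP 1 between 37.3% and 44.7% of LINC0 probes were well above background, against 73.2% to 77.4% of the 25219 probes for mRNAs (NM_) and 18.8% to 25.2% of the 11836 probes for catalogued lincRNAs (XLOC_). On GFP 1 the shares were 84.2%, 92.4% and 74.7%. All 8 arrays detected 74 LINC0 probes and no array detected 27, which left 7 genes with no probe above background anywhere. A further 79 LINC0 probes (34.6%) were above background on GFP 1 alone, and the same was true of 44.5% of XLOC_ and 12.6% of NM_ probes.

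Among HuR, TIA1 and TIAR, LINC00029 was the only LINC0 probe well above background on both arrays of 1 line and on no array of the others. It read -4.39 and -5.28 in TIAR, -6.00 and -6.02 in HuR and -5.84 and -6.67 in TIA1 cells, which bounds the signal in TIAR at no less than 2.18-fold that in HuR (adjusted p = 0.0586 from limma) and 1.55-fold that in TIA1 (adjusted p = 0.143). It was not called in either comparison. The reverse pattern, a probe not well above background in 1 line only, was looked for after the values were seen. It was found for 1 probe each of LINC00158 in HuR, LINC00478 in TIAR and LINC00458 in TIA1, where for LINC00458 no higher signal in HuR could be shown. Neither pattern was counted over all probes of the array, so how common they are there is not known.

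TIA1-expressing cells were compared with HuR-expressing cells first. Between them 10 LINC0 probes of 8 genes were higher and 12 probes of 7 genes were lower in TIA1, out of 92 probes of 57 genes tested. Among all 28739 probes tested, 8.59% were called higher and 4.84% lower, and among LINC0 probes 10.9% and 13%. The shares were 12.6% and 6.11% for XLOC_ probes and 7.67% and 4.76% for NM_ probes. Counted by gene name, 12.3% of LINC0 genes and 5.72% of all genes had a lower probe. The test took in a probe if either line had it well above background on each of its arrays. A call needed a 2-fold change or more together with limma's adjusted p below 0.05. The other 136 LINC0 probes were too dim to test. The median log2 change was 0.15 over the LINC0 probes and 0.09 over all probes tested. Whether a change in bulk RNA came from fewer cells with an RNA or from less RNA per cell cannot be told apart.

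Array scaling and single arrays moved these counts. Quantile normalization, under which the median of all probes was -0.02, gave 6 higher and 12 lower LINC0 probes. Fewer higher LINC0 probes were called without HuR 1. How the share of all probes moved in these fits was not counted. In the alternative limma fits all 22 called probes kept their direction and 11 kept their call in every fit, while the methods' paired t-test after adjustment called 0.

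The largest decrease was that of LINC00263, now OLMALINC, an RNA first described in the maturation of oligodendrocytes. The probe at chr10:102142863 read 0.42 and 0.44 in HuR, -3.08 and -2.89 in TIA1, -1.76 and -2.17 in TIAR and -0.62 and 0.03 in GFP cells. The second probe, 9.11 kb away, read 0.64 and 0.61 in HuR, -2.20 and -2.22 in TIA1, -2.14 and -1.81 in TIAR and -0.62 and -0.07 in GFP cells. No array of TIA1 or TIAR overlapped an array of HuR or GFP at either probe. LINC00263 was 10.6-fold lower in TIA1 than in HuR cells at the first probe (log2 fold change -3.41, SE 0.11, adjusted p = 0.00174 from limma) and 7.15-fold lower at the second (log2 fold change -2.84, SE 0.09, adjusted p = 0.00174). Its protein-coding neighbour SCD, which makes monounsaturated fatty acids, had an adjusted p of 0.789 at a log2 fold change of -0.04.

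LINC00467, described in the growth of tumour cells, was lower at all 4 of its probes. The probe at chr1:211605740, which is the mean of 10 spots per array, read 1.11 and 1.07 in HuR, -0.98 and -0.89 in TIA1, -0.63 and -0.50 in TIAR and 0.40 and 0.78 in GFP cells. The TIA1 arrays were the lowest, the TIAR arrays lay just above them, and the GFP arrays lay between TIAR and HuR. The fold decrease in TIA1 was 4.06 at this probe (log2 fold change -2.02, SE 0.10, adjusted p = 0.00192 from limma) and ranged from 3.12 to 3.93 at the others. Of these 4 probes 3 lie side by side and overlap by 10 or 44 bases, so they are not independent, while the fourth is 40.4 kb away. The neighbour TRAF5, an adaptor of TNF receptors, had an adjusted p of 0.0505 at a log2 fold change of 0.33.

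LINC00460, also described in tumour cell growth, was lower in TIA1 at both tested probes. At chr13:107029573 it read -2.66 and -2.96 in HuR, -4.31 and -4.72 in TIA1, -3.01 and -3.08 in TIAR and -1.51 and -2.26 in GFP cells. At chr13:107030039 it read -1.83 and -1.91 in HuR, -3.25 and -3.89 in TIA1, -2.13 and -2.02 in TIAR and -1.57 and -1.5 in GFP cells. TIA1 was thus the low line at both probes. The decreases against HuR were 3.26-fold (log2 fold change -1.71, SE 0.19, adjusted p = 0.00635 from limma) and 3.25-fold (log2 fold change -1.70, SE 0.24, adjusted p = 0.00971). The first call was lost with normexp, where the log2 fold change was -0.79, and the second without HuR 1 or HuR 2 (adjusted p = 0.0617 and 0.0607). The remaining probe was above background on 3 of 8 arrays and was not tested.

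LINC00346, now PRECSIT, is an RNA known for its regulation by p53 and for activating STAT3. It read -3.15 and -3.13 in HuR, -4.62 and -5.46 in TIA1, -4.77 and -4.18 in TIAR and -4.37 and -4.23 in GFP cells. HuR was the high line, and GFP overlapped TIAR. The decrease in TIA1 was 3.75-fold (log2 fold change -1.91, SE 0.30, adjusted p = 0.0127 from limma), and the probe was above background on 1 of the TIA1 arrays. Without HuR 1 or without HuR 2 the call was lost, and so it was with normexp background correction, in the authors' values and without the filter on dim probes. Its neighbour ANKRD10 had probes that disagreed (log2 fold changes of -0.47 and 1.04), and ING1 had a log2 fold change of 0.56.

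The remaining lower probes belonged to LINC00482, LINC00476 and LINC00086, with log2 fold changes of -1.23, -1.22 and -1.03. LINC00482 and LINC00086 were named because these 3 are the whole remainder. The calls of LINC00482 and LINC00086 were lost with normexp and in the authors' values, and that of LINC00086 also without HuR 1 or TIA1 2.

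On the higher side, LINC00158 was not well above background on either HuR array. Its probe at chr21:26758567 read -6.73 and -6.28 in HuR, -3.31 and -2.94 in TIA1, -4.34 and -4.06 in TIAR, and -0.35 and -4.72 on GFP 1 and GFP 2. TIA1 was above TIAR and both were above HuR, while the GFP arrays lay far apart. The signal was at least 7.34-fold higher in TIA1 than in HuR cells (adjusted p = 0.00266 from limma), a bound set by the dimmest signal that each HuR array still resolved from background. The log2 fold change was 1.58 with normexp and 1.19 in the authors' values, both below that bound, and fitting the 8 arrays together ended the call. A second probe, 38.3 kb away, was above background on no array. The neighbour MRPL39, a mitochondrial ribosomal protein, had an adjusted p of 0.163 at a log2 fold change of 0.55.

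LINC00173, an RNA described in blood cell differentiation, was higher at 2 of 3 probes. At chr12:116973091 it read -1.51 and -1.88 in HuR, 0.71 and 0.56 in TIA1, 0.21 and 0.19 in TIAR and -1.44 and -0.96 in GFP cells. At chr12:116974257 it read -2.49 and -2.53 in HuR, -0.55 and -0.20 in TIA1, -0.82 and -0.87 in TIAR and -3.10 and -2.51 in GFP cells. Both probes set TIA1 and TIAR above HuR and GFP without overlap. The increases in TIA1 were 5.03-fold (log2 fold change 2.33, SE 0.16, adjusted p = 0.00286 from limma) and 4.37-fold (log2 fold change 2.13, SE 0.15, adjusted p = 0.00289). The third probe, 0.944 kb upstream of the first, read -2.42 and -2.76 in HuR and -2.27 and -2.12 in TIA1 cells (log2 fold change 0.39, adjusted p = 0.110). The neighbour MED13L, a subunit of the Mediator kinase module, had an adjusted p of 0.0276 at a log2 fold change of 0.57, short of 2-fold.

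LINC00085 is now listed within SPACA6, a protein-coding gene of fertilization. At chr19:52208352 it read 0.86 and 0.87 in HuR, 2.63 and 2.81 in TIA1, 1.77 and 1.89 in TIAR and 0.26 and 0.74 in GFP cells. TIA1 was highest and TIAR lay midway between TIA1 and HuR. The increase in TIA1 was 3.61-fold (log2 fold change 1.85, SE 0.11, adjusted p = 0.00243 from limma) at this probe and 3.13-fold (log2 fold change 1.64, SE 0.15, adjusted p = 0.00403) at chr19:52206489. The third probe overlaps the first by 10 bases and extends upstream of it. It read -3.13 and -3.09 in HuR and -2.5 and -3.35 in TIA1 cells (log2 fold change 0.18, SE 0.30, adjusted p = 0.656). The TIA1 arrays lay on either side of the HuR arrays at that probe.

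LINC00246A, now FAM226A, was 2.41-fold higher at chrX:71998801 (log2 fold change 1.27, SE 0.10, adjusted p = 0.00342 from limma). A near-identical gene, FAM226B, lies nearby, and the array could not separate the copies where they are alike. The arrays read -1.73 and -1.62 in HuR, -0.44 and -0.37 in TIA1, -0.37 and -0.24 in TIAR and -1.72 and -1.75 in GFP cells. GFP was level with HuR here, and TIA1 with TIAR.

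LINC00403, now SOX1-OT, a transcript that overlaps the neural transcription factor gene SOX1, was highest on the TIA1 arrays. It read -3.71 and -3.61 in HuR, -2.72 and -2.29 in TIA1, -4.01 and -4.07 in TIAR and -3.51 and -3.32 in GFP cells. The increase was 2.22-fold (log2 fold change 1.15, SE 0.18, adjusted p = 0.0119 from limma). Leaving out HuR 1, HuR 2 or TIA1 2 ended the call, as did normexp background correction, quantile normalization, the authors' values and no filter on dim probes. The other higher probes were those of LINC00313, LINC00421 and LINC00476, with log2 fold changes of 1.03 each. Alternative fits ended the call of LINC00313 in 5 of 10 and that of LINC00421 in 8 of 11, and in the authors' values their log2 fold changes were 0.28 and 0.26.

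LINC00476, now ERCC6L2-AS1, an antisense transcript of the DNA repair gene ERCC6L2, was called in both directions. At chr9:98568486 it read -3.08 and -2.81 in HuR and -4.42 and -3.90 in TIA1 cells, a log2 fold change of -1.22 (SE 0.22, adjusted p = 0.0169 from limma). At chr9:98637827, 69.3 kb away, it read -4.65 and -4.49 in HuR and -3.66 and -3.43 in TIA1 cells, a log2 fold change of 1.03 (SE 0.13, adjusted p = 0.00793). The third probe, 0.29 kb from the second, had an adjusted p of 0.187 at a log2 fold change of -0.20. Of 11 alternatives 7 ended the call at each of the first 2 probes, and in none did the direction turn. ERCC6L2 itself had a log2 fold change of -0.06.

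TIAR-expressing cells differed from the same HuR arrays at fewer LINC0 probes. Of 94 tested, 6 probes of 4 genes were higher and 8 probes of 4 genes were lower in TIAR, against 7.15% of all probes higher and 2.93% lower, while the LINC0 shares were 6.38% and 8.51%. For XLOC_ probes they were 11.3% and 3.05%, and for NM_ probes 6.42% and 2.97%. The lower genes were LINC00263, LINC00467, LINC00346 and LINC00476, and the higher genes were LINC00158, LINC00173, LINC00246A and LINC00115. Quantile normalization gave 4 higher and 9 lower probes. Fewer LINC0 probes were called in either direction without HuR 2 or without HuR 1. How the share of all probes moved in those fits was not counted, so whether the drop is particular to LINC0 probes is not known.

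LINC00263 was 6.08-fold lower in TIAR at chr10:102133690 (log2 fold change -2.60, SE 0.14, adjusted p = 0.00394 from limma) and 5.24-fold lower at its other probe. The decrease of LINC00467 ranged from 2.65-fold to 3.39-fold over its 4 probes. Without HuR 2 the calls of the other LINC00263 probe and of all 4 LINC00467 probes were lost, and without HuR 1 those of 2 LINC00467 probes. LINC00346 was 2.53-fold lower (log2 fold change -1.34, SE 0.22, adjusted p = 0.0200 from limma), and lost the call without HuR 1 or HuR 2, with normexp, without the filter on dim probes and with all 8 arrays in one fit. LINC00476 was 2.22-fold lower at chr9:98568486 (adjusted p = 0.0187), a call lost in 7 of 11 alternative fits. Against these, LINC00460, which fell in TIA1, had log2 fold changes of -0.21 and -0.23 in TIAR (adjusted p = 0.194 and 0.268 from limma).

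The increase of LINC00173 in TIAR was 3.71-fold (log2 fold change 1.89, SE 0.16, adjusted p = 0.00592 from limma) at chr12:116973091 and 3.17-fold at chr12:116974257. LINC00158 was at least 3.50-fold higher (adjusted p = 0.00662 from limma), though not called in the authors' values, with normexp or with all 8 arrays in one fit. The log2 fold change was 0.82 with normexp and 0.32 in the authors' values, both below that bound. LINC00246A was higher at both probes, by 2.58-fold and 2.09-fold. The first call was lost without HuR 1 or HuR 2 and the second in 7 of 11 alternative fits, the authors' values among them (log2 fold change 0.41). LINC00115 read -1.78 and -1.60 in HuR, -0.55 and -0.71 in TIAR, -1.10 and -0.94 in TIA1 and -2.35 and -1.81 in GFP cells, an increase of 2.09-fold in TIAR (log2 fold change 1.06, SE 0.12, adjusted p = 0.0101 from limma) whose call was lost in 5 of 11 alternative fits. The array design places that probe on chromosome 8 whereas RefSeq lists the gene on chromosome 1, 1 of 2 such LINC0 probes among the 219 compared. All 3 probes of LINC00085 fell short of the 2-fold threshold in TIAR, with log2 fold changes of 0.82 to 0.97 and adjusted p-values of 0.00822 to 0.0131.

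The comparisons with HuR share their HuR arrays, so their values are set side by side only. Of 91 LINC0 probes tested in both, 4 were called higher and 8 lower in both TIA1 and TIAR, and 0 were called in opposite directions. By gene these were 3 higher and 4 lower. The overlap was not counted over all probes, so whether it differs for LINC0 probes is not known.

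TIAR and TIA1 were then compared with each other. Of 92 LINC0 probes tested, 1 was higher and 2 were lower in TIAR, while among all probes 1.25% were higher and 1.1% lower. LINC00460 was 2.78-fold higher in TIAR at chr13:107029573 (log2 fold change 1.47, SE 0.18, adjusted p = 0.0358 from limma), and its probe at chr13:107030039 had a log2 fold change of 1.49 with an adjusted p of 0.0549. LINC00403 was 2.90-fold lower in TIAR (log2 fold change -1.54, SE 0.18, adjusted p = 0.0358). The called probe of LINC00478, now MIR99AHG, the host transcript of miR-99a and let-7c, was not above background on either TIAR array. It read -6.02 and -5.78 in TIAR, -4.68 and -4.41 in TIA1, -5.08 and -5.08 in HuR and -2.99 and -4.81 in GFP cells, and the signal was at least 2.24-fold lower in TIAR than in TIA1 (adjusted p = 0.0358). This probe spans an intron, at chr21:17909716-17979329. Another LINC00478 probe was above background on both TIAR arrays. Its log2 fold change in TIAR was -0.80 against TIA1 and 0.87 against HuR, and it was called in neither comparison. None of these 3 calls remained without any 1 of the 4 arrays or with the replicate number as a block.

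Other probes moved past 2-fold between TIAR and TIA1 without passing the test. One was LINC00263 at chr10:102142863 (log2 fold change 1.02), where TIAR lay above TIA1 and below HuR.

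GFP-expressing cells are the control for the tagged proteins. Limma called 0 LINC0 probes between GFP and TIA1, TIAR or HuR, and 0.0% of all probes. At an unadjusted p under 0.05 there were 31 LINC0 probes of 93 tested for TIA1, 24 of 94 for TIAR and 15 of 93 for HuR. These were 33.3%, 25.5% and 16.1%, against 21.3%, 16.1% and 16.9% of all probes. The methods' paired t-test at its unadjusted threshold gave 7, 5 and 2. The lowest adjusted p among LINC0 probes was 0.0951 for TIA1, 0.114 for TIAR and 0.139 for HuR.

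These counts turned on the spread between GFP 1 and GFP 2. Without GFP 1, 23 LINC0 probes (24.7% of those tested, against 11.5% of all probes) were called for TIA1, 14 (14.9% against 6.73%) for TIAR and 9 (9.68% against 8.45%) for HuR. Without GFP 2 there were 40 (43.0% against 23.6% of all probes), 35 (37.2% against 21.3%) and 35 (37.6% against 24.3%), most of them lower than in GFP 1 (27, 25 and 26). With all 8 arrays in one fit there were 21 (22.6% against 9.1%), 16 (17.0% against 5.91%) and 2, the last a share of 2.15% that lay below the 3.97% of all probes. Some LINC0 probes were called in the same direction in all 3 of these settings, for TIA1, TIAR and HuR alike. That overlap was chosen after seeing the data and was not counted over all probes. Whether it differs for LINC0 probes is therefore not known.

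The same RNAs that separated TIA1 from HuR are given here against GFP. In TIA1 against GFP the fit with both GFP arrays gave LINC00263 log2 fold changes of -2.68 and -1.87 (adjusted p = 0.0951 and 0.104 from limma), LINC00460 -2.04 and -2.63 and LINC00467 -1.59 to -1.46. LINC00173 had 2.43 and 1.84, and LINC00085 2.22 at its brightest probe. LINC00312, described in nasopharyngeal carcinoma, read -2.61 and -2.35 in GFP, -1.51 and -1.51 in HuR, -0.69 and -0.54 in TIA1 and -1.06 and -0.88 in TIAR cells. The GFP arrays were its lowest and the TIA1 arrays its highest, with a log2 fold change of 1.86 between them (adjusted p = 0.0951).

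Among the RNAs that separated GFP from all 3 other lines, a pair was picked out after its values were seen. LINC00304 was not above background on either GFP array, at -7.17 and -7.60, and read -4.49 and -4.55 in HuR, -4.39 and -4.05 in TIA1 and -3.93 and -4.20 in TIAR cells. It was at least 2.18-fold higher in HuR, 2.69-fold in TIA1 and 2.99-fold in TIAR than in GFP cells (adjusted p = 0.139, 0.0951 and 0.114 from limma), and at least 1.92-fold, 2.36-fold and 2.63-fold against GFP 2 alone. LINC00347 had the opposite pattern, with -3.97 and -2.55 in GFP and no array above background among HuR (-7.11 and -8.22), TIA1 (-6.49 and -7.23) and TIAR (-6.72 and -7.68). It was at least 6.69-fold higher in GFP than in HuR cells, 4.61-fold than in TIA1 and 5.46-fold than in TIAR (adjusted p = 0.188, 0.108 and 0.184). Against GFP 2 alone these bounds were 10.9-fold, 7.53-fold and 8.92-fold, a setting also chosen after seeing the data. LINC00442 was likewise above background on both GFP arrays and on no array of the other lines. It was at least 4.31-fold higher in GFP than in HuR cells, 3.17-fold than in TIA1 and 3.0-fold than in TIAR (adjusted p = 0.244, 0.204 and 0.325 from limma). Against GFP 2 alone its bounds were 2.44-fold, 1.79-fold and 1.7-fold. LINC00304, LINC00347 and LINC00442 were not called in any comparison with GFP. Each was tested only because the lines where it was bright passed the filter. Their bounds set a mean signal over a detection floor and are not confidence limits.

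At the probes called against HuR the GFP arrays mostly lay on the HuR side. Of 22 probes called between TIA1 and HuR, both GFP arrays were nearer the HuR mean at 16 and nearer the TIA1 mean at 4, and they fell on either side at 2. For TIAR the counts were 11 nearer HuR and 3 nearer TIAR. All probes of LINC00467 were among those nearer HuR in both comparisons, so the counts repeat that gene. The same count was not made over all called probes, so whether the LINC0 probes differ from them is not known. The probes nearer TIA1 were those of LINC00158, LINC00346, LINC00421 and 1 of LINC00476, and for LINC00346 this put HuR above all other lines.

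The members were also counted by known roles, on lists drawn up with earlier results of these data known. Of 9 listed RNAs with described roles in cell growth 8 were on the array, with 15 tested probes, of which 2 were higher and 9 lower in TIA1 and 2 higher and 7 lower in TIAR than in HuR cells. The median log2 change of these 15 was -1.70 for TIA1 and -0.23 for TIAR. Among all probes tested 8.59% were higher and 4.84% lower in TIA1, and 7.15% and 2.93% in TIAR. Of the 9 lower probes 8 were those of LINC00467, LINC00263 and LINC00460 described above and the other was that of LINC00346, so the count repeats those calls. Since the list was drawn up with these results known, its counts and medians are no evidence about RNAs with such roles. Among those not called, LINC00152, which promotes growth in many tumours, read 1.38 and 1.73 in HuR, 1.08 and 1.20 in TIA1 and 1.62 and 1.63 in TIAR cells. LINC00312 and LINC00176 had log2 fold changes of 0.90 each in TIA1 (adjusted p = 0.00639 and 0.00559 from limma), short of 2-fold.

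Hosts of miRNAs gave no call against HuR. Of 4 listed, LINC00461, which carries miR-9, and LINC00478 were on the array, and LINC00461 had log2 fold changes of 0.06 in TIA1 and -0.24 in TIAR. Neighbours of developmental regulators were mostly dim. LINC00261 beside FOXA2 and LINC00340 beside SOX4 had no tested probe, and LINC00473 had log2 fold changes of 0.55 and 0.37. Of the LINC0 genes matched in RefSeq 10 are now listed as protein coding. They had 7 tested probes, of which 2, both of LINC00085, were higher in TIA1 and 0 were called in TIAR. LINC00086 and LINC00087 were expected among them but found no RefSeq match, so these counts leave them out. LINC00086 was called lower in TIA1, with a log2 fold change of -1.03. The 4 genes that the study lists among its own changed RNAs, LINC00173, LINC00085, LINC00263 and LINC00467, hold 10 of the 22 probes called in TIA1, and since the study chose them on these arrays they are not independent evidence.

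The protein-coding genes next to the called LINC0 genes were looked at as a description. Around 13 LINC0 genes RefSeq lists 31 overlapping or nearest protein-coding genes, of which 15 had a tested probe. A probe was called for 2 of these in TIA1, ANKRD10 beside LINC00346 and CXADR beside LINC00478, and for 1 in TIAR, ANKRD10. Among all gene names tested, 10.3% had a higher and 5.72% a lower probe in TIA1, and 8.71% and 3.57% in TIAR. Counts this small cannot set the neighbours apart from these shares. The LINC0 genes were chosen by their calls and the neighbours were not.

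The patterns most like those of the 3 RNAs with the largest changes were sought among the 74 LINC0 probes above background on all 8 arrays. For LINC00263 the nearest were 3 probes of LINC00467 with Pearson r from 0.976 to 0.987, and LINC00087 with 0.967, over 8 arrays. For LINC00173 they were LINC00246A (0.933), LINC00341 (0.928) and LINC00085 (0.917). For LINC00158 they were LINC00472 (0.926) and LINC00476 (0.924), which fell to 0.845 and 0.856 over the 7 arrays without GFP 1. The 8 arrays come from only 4 lines, and r across them is a description.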

How the data were processed

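RNA of 4 FT293 lines was labelled with Cy3 and hybridized to 8 arrays of human 60-base probes on 1 slide, 2 per line. In the deposited scanner files each spot has an intensity from which the authors' extraction software had subtracted background, with no scaling across arrays. A separate deposited table holds the authors' log2 values, quantile-normalized, in which the TIAR arrays have a median of 7.08 and the others 7.23 to 7.24, and it was used as an alternative. The deposited flag for a probe well above background is coded 0 or 1.

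Here processed signals were put on the log2 scale, each array's 75th percentile was subtracted, outlier spots (278 to 413 per array) were left out and spots of a probe were averaged. Each pair of lines was fitted alone with limma 3.58.1 (lmFit and eBayes) in R 4.3.3, with Benjamini-Hochberg adjustment over all probes tested. Tables were read with pandas 2.3.3. The fits were tested on simulated data. The number of arrays, 2 per line, limits the precision.

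The alternatives were normexp (offset 50), quantile normalization, the authors' values, no filter on dim probes, only probes detected by all 4 arrays of a comparison, one fit to the 8 arrays together, a block for replicate number, omission of each array in turn, and the methods' paired t-test. The LINC0 genes, the lists and the tests were chosen with earlier results of these data known. Named were the 8 called LINC0 probes with the largest change in each direction of the comparisons among HuR, TIA1 and TIAR, probes detected in 1 line, genes of the role lists, nearest protein-coding neighbours and the most similar patterns. RefSeq (GRCh38.p14) matched 221 of 228 probes by accession, symbol or synonym and was used for names, neighbours and gene type. Its coordinates picked the overlapping and nearest genes, and its chromosomes were set beside those of the array design. The probe positions given here are those of the array design. Where neither array of a line had a probe above background, the fold is a bound and not a confidence limit. The adjusted p-values beside bounds are from the limma fit to the measured signals. Its denominator was, per array, the dimmest resolved signal or the probe's own signal if that was brighter.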

Additional observations from a re-analysis of the deposited data

How the results depend on the processing

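Only LINC0 probes called among HuR, TIA1 and TIAR were followed singly, through the alternative limma fits, and none of them turned direction there. Of these calls 11 of 22 in TIA1 against HuR, 3 of 14 in TIAR against HuR and 0 of 3 in TIAR against TIA1 held in every such fit. The cause of the changes below was not tested. The share of all probes called in the alternatives was counted only for some fits against GFP, so whether the changes are particular to LINC0 probes is not known. The counts of LINC0 probes higher and lower in TIA1 than in HuR (10 and 12) became 6 and 7 with normexp background correction, and the higher ones became 6 with quantile normalization, in the authors' values, with all 8 arrays in one fit and by the methods' paired t-test unadjusted. After Benjamini-Hochberg adjustment that t-test called 0 probes in every comparison. The counts higher and lower in TIAR than in HuR (6 and 8) became 3 higher in the authors' values, 10 higher without the filter on dim probes, which tests more probes, and 5 lower by the unadjusted t-test. Between TIAR and TIA1 (1 higher and 2 lower in TIAR) the counts were 0 and 0 with normexp and without the filter, 0 and 1 in the authors' values, 2 and 1 for probes above background on all 4 arrays, and 1 lower with all 8 arrays. Against GFP (0 called) the fit of all 8 arrays called 21 probes for TIA1, 16 for TIAR and 2 for HuR, and the unadjusted t-test 7, 5 and 2. Leaving out 1 array at a time gave 6 to 11 higher and 8 to 15 lower probes in TIA1 than in HuR, 3 to 7 and 1 to 10 in TIAR than in HuR, 0 to 0 between TIAR and TIA1, and 0 to 40, 0 to 35 and 0 to 35 against GFP for TIA1, TIAR and HuR.

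With the replicate block the counts between TIAR and TIA1 were 0 higher and 0 lower, and no other count changed. The deviations of same-numbered arrays correlated from -0.09 to 0.184, so the numbers were not taken to pair the arrays. Dim probes limit the rest, since 133 of 228 LINC0 probes were tested in none of the comparisons among HuR, TIA1 and TIAR.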
